A study of Rattus norvegicus with 12 samples.

Results

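Neuropeptide precursors are the proteins from which peptide transmitters are cut, and 10 of their genes were followed here: Gal, Tac1, Npy, Sst, Penk, Pdyn, Cck, Nts, Adcyap1 and Cartpt. A gene was taken wherever the array's annotation gave its symbol as the only symbol of a probe set, the group of short probes that together measure one transcript. This gave 9 of the 10 genes, with 1 probe set each, among 10411 named genes and 15866 probe sets tested. Nts has no such probe set and was not analysed here. Of the 9, all but Pdyn lay above the dimmest 25% of probe sets, and Npy, Sst, Penk, Cck and Cartpt also lay above the dimmest 50%.

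The samples were rat (CD1) ventral midbrain cultures, described by the submitters as enriched in dopaminergic neurons. Cells of embryonic day 12 grew for 6 days in bFGF (a fibroblast growth factor that keeps precursors dividing, 20 ng/ml) plus the N-terminal fragment of Sonic hedgehog (50 ng/ml). Both were then withheld for 3 days while the B27 supplement was kept. On day 9, depolarized cultures had 56 mM KCl for 2 h, then a change of medium and collection 30 min later (depolarized 30 min) or 2 h later (depolarized 2 h). Controls (control 30 min, control 2 h) were held in control medium for the same times. Each of the 4 groups had 3 arrays, numbered 1 to 3 at 30 min and 4 to 6 at 2 h. For every sample the submitters give embryos of 4 pregnant rats mixed into 3 lots. Whether the 2 collection times shared these is not stated. The RNA of duplicate cultures was pooled, so the spread between arrays is that between pooled cultures and not between animals.

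A neuropeptide precursor enters the secretory pathway, is cut at pairs of basic residues by prohormone convertases, trimmed, often amidated, and stored with granins in dense-core vesicles. Release needs stronger or longer firing than release of small transmitters, and the spent peptide is replaced by new synthesis, so precursor mRNA is a common readout of past activity. Several of these genes carry cyclic AMP response elements (CRE) in their promoters, sites bound by CREB, a factor activated by calcium entry. In the ventral midbrain, cholecystokinin and neurotensin are known to occur within dopaminergic neurons themselves. Substance P is better known there from axons that reach the midbrain from the striatum.

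Values are log2 expression summaries, so a difference of 1 is a doubling. Array medians lay between 8.33 and 8.43, and arrays of a group correlated at 0.9957 or more. Differences come from limma fitted to all probe sets and all 12 arrays, with Benjamini-Hochberg adjusted p-values over 15866 probe sets, a threshold of 0.05 and unadjusted 95% intervals. The depolarization was visible in Fos, which stood at 10.89, 11.25 and 11.01 in depolarized 30 min arrays, against 6.98, 6.95 and 7.04 in control 30 min arrays. Of 10 dopaminergic markers 8 were measured, and 7 of these, Th among them, lay above the dimmest 25% of probe sets; Pitx3, a dopaminergic transcription factor, did not. The table holds no detection calls.

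At 2 h after the end of depolarization, the precursors of galanin (Gal), of substance P and neurokinin A (Tac1) and of the enkephalins (Penk) were higher in depolarized than in control cultures, by 1.33-fold, 1.30-fold and 1.50-fold. The other 6 measured genes did not pass the test. At 30 min limma called none of the 9 (1 had an unadjusted p under 0.05), where 24.0% of all probe sets were called and 10.8% were called higher. The 3 genes that rose at 2 h are 33.3% of those measured, where 9.51% of all probe sets tested were called higher and 25.2% were called in either direction. All 3 depolarized arrays lay above all 3 controls for these 3 genes, as they did for 15.4% of all probe sets. The median difference of the 9 was 0.12 at 2 h, against -0.00069 over all probe sets tested.

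**Figure D1:**
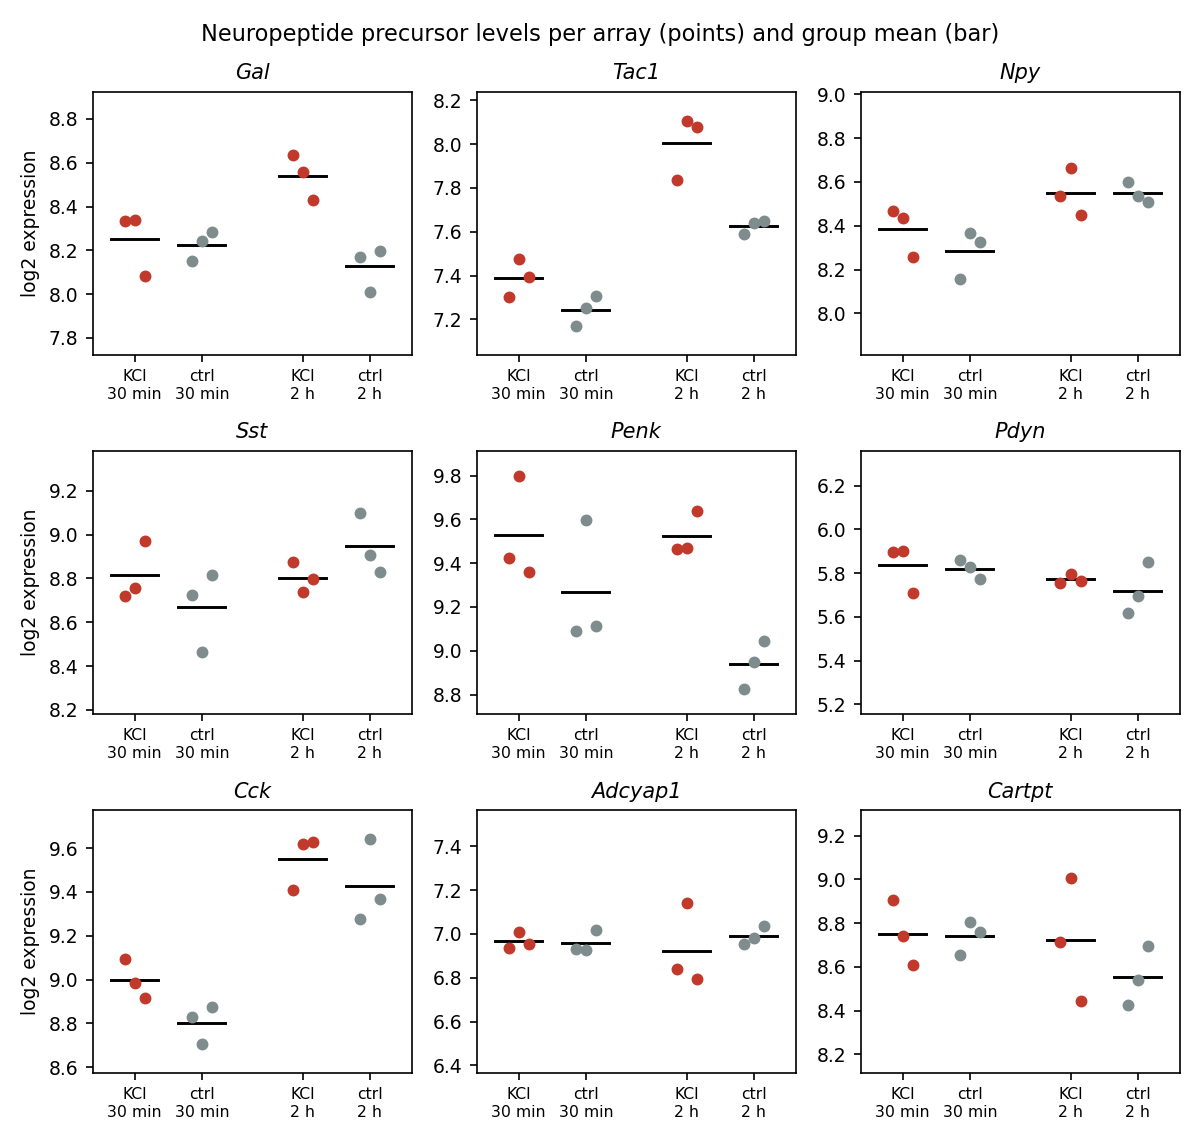
Log2 expression of the 9 measured precursors in each array (points) with the group mean (bar), depolarized (KCl, red) and control (ctrl, grey) at 30 min and at 2 h; every panel spans 1.2 log2 units. At 2 h all depolarized points of Gal, Tac1 and Penk lie above all control points, and Tac1, Npy and Cck are higher in control 2 h than in control 30 min arrays.

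Gal encodes galanin, an inhibitory peptide that neurons are known to raise after injury and strong stimulation. At 2 h it stood at 8.63, 8.56 and 8.43 in depolarized arrays, against 8.17, 8.01 and 8.20 in controls. The groups did not overlap, and the depolarized 2 h arrays were also the highest of all 12. How many of all probe sets show that order was not counted. The difference was 0.41 (SE 0.08, adjusted p = 0.00158). At 30 min it stood at 8.33, 8.34 and 8.08 in depolarized arrays and at 8.15, 8.24 and 8.28 in controls, with overlap (0.03, 95% interval -0.15 to 0.20, adjusted p = 0.884).

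Gal was the only one of the 9 whose response differed between the collection times by limma's test: the 2 h response minus the 30 min response was 0.39 (SE 0.12, adjusted p = 0.0377), where 13.0% of all probe sets were called and 6.16% in that direction. That call was lost without any 1 of 7 arrays, which were depolarized 30 min replicate 3, control 30 min replicates 2 and 3, depolarized 2 h replicates 4 and 5, and control 2 h replicates 4 and 5 (adjusted p from 0.0507 to 0.104). In order of level, Gal ran from depolarized 2 h through depolarized 30 min and control 30 min to control 2 h. Depolarized 2 h arrays exceeded depolarized 30 min arrays by 0.29 (adjusted p = 0.0102), a call lost without depolarized 30 min replicate 3 (adjusted p = 0.0569) or depolarized 2 h replicate 4 (adjusted p = 0.0507). The other neighbours in that order did not differ beyond their spread. In control 2 h arrays Gal differed from control 30 min arrays by -0.10 (adjusted p = 0.373).

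Tac1 encodes preprotachykinin-A, whose probe set carries the suffix used where probes are shared by splice forms of one gene. At 2 h it stood at 7.83, 8.11 and 8.08 in depolarized arrays, against 7.59, 7.64 and 7.65 in controls, without overlap (difference 0.38, SE 0.08, adjusted p = 0.00177). At 30 min it stood at 7.30, 7.48 and 7.39 in depolarized arrays and at 7.17, 7.25 and 7.31 in controls. There the lowest depolarized array lay just below the highest control (0.15, 95% interval -0.01 to 0.31, adjusted p = 0.2). The responses at the 2 times differed by 0.23 (adjusted p = 0.196), which does not pass.

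Tac1 also differed by collection time. Control 2 h arrays were higher than control 30 min arrays by 0.38 (SE 0.08, adjusted p = 0.000989), again without overlap, and depolarized 2 h arrays were higher than depolarized 30 min arrays by 0.62 (adjusted p = 1.03e-05). The order was therefore depolarized 2 h, control 2 h, depolarized 30 min and control 30 min, and only the lowest neighbours did not differ in the test. The depolarized 30 min level was -0.24 from the control 2 h level (adjusted p = 0.0169, a comparison added after seeing the data).

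Penk encodes proenkephalin, the source of Met- and Leu-enkephalin, and had the largest of the 9 differences. At 2 h it stood at 9.46, 9.47 and 9.64 in depolarized arrays, against 8.83, 8.95 and 9.04 in controls, without overlap (0.58, SE 0.13, adjusted p = 0.00324). At 30 min it stood at 9.42, 9.80 and 9.36 in depolarized arrays and at 9.09, 9.60 and 9.12 in controls. Replicate 2 was the highest of its group in both, and the groups overlapped (0.26, 95% interval -0.01 to 0.53, adjusted p = 0.18). Penk passed at 30 min without control 30 min replicate 2 (0.42, adjusted p = 0.0137) and with array weights (0.39, adjusted p = 0.0226).

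The mean Penk level in depolarized cultures was 9.52 ± 0.10 at 2 h and 9.53 ± 0.24 at 30 min (mean ± SD, n = 3 each), a difference of -0.0030 with a 95% interval of -0.28 to 0.27 (adjusted p = 0.986). The controls stood at 8.94 ± 0.11 at 2 h and 9.27 ± 0.29 at 30 min, a difference of -0.33 (95% interval -0.60 to -0.06, adjusted p = 0.0572). Their arrays did not overlap, but the share of all probe sets apart in that direction was not counted. The comparison of controls passed without depolarized 30 min replicate 2, control 30 min replicate 1 or control 30 min replicate 3 (adjusted p from 0.032 to 0.0419), in a fit of the 6 controls alone (adjusted p = 0.0435) and without dim probe sets. Set against the control 30 min arrays instead, the depolarized 2 h arrays overlapped them, and the difference was 0.26 (adjusted p = 0.136). For Gal and Tac1 the same setting gave 0.32 (adjusted p = 0.00637) and 0.76 (adjusted p = 1.33e-06), so their depolarized 2 h arrays exceeded both control groups. This setting adds the control difference between collection times to the difference at 2 h (0.38 and 0.38 for Tac1). It is therefore no separate test of the response to depolarization.

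Among depolarized 2 h arrays, replicate 5 had the lowest Egr1, an immediate-early transcription factor, at 10.47, against 11.53 and 11.29 in replicates 4 and 6. It was not the lowest of the 3 for Gal, Tac1 or Penk. Without it the differences were 0.40 for Gal (adjusted p = 0.00584), 0.33 for Tac1 (adjusted p = 0.00945) and 0.61 for Penk (adjusted p = 0.00659). The 3 calls at 2 h held without any 1 of the 12 arrays, with adjusted p up to 0.0121 for Gal, 0.0101 for Tac1 and 0.0195 for Penk.

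**Figure D2:**
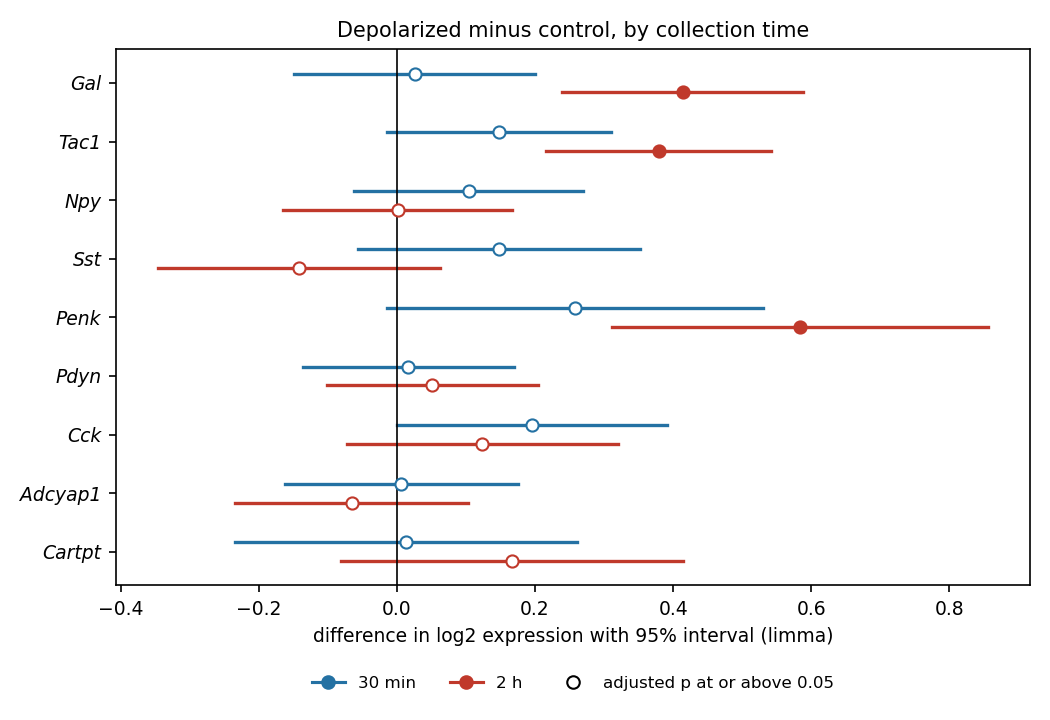
Depolarized minus control difference in log2 expression for each of the 9 precursors (point) with its 95% interval (line) at 30 min (blue) and 2 h (red); open points did not pass adjusted p 0.05. The 3 filled points are Gal, Tac1 and Penk at 2 h, at 0.41, 0.38 and 0.58.

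The promoters of Gal and Tac1, risen together at 2 h, are given from RefSeq (rat assembly GRCr8), from 250 bases before to 50 bases after the annotated start. Matches to 4 motifs searched on both strands are in capitals: the full CRE TGACGTCA, its first part TGACG, the CRE-2 form TGCGTCA known from the Penk enhancer, and the AP-1 site TGANTCA. The first part lies within the full CRE, and its reverse complement lies within the CRE-2 form, so these matches overlap.
Gal, chr1:210084523-210084822, minus strand: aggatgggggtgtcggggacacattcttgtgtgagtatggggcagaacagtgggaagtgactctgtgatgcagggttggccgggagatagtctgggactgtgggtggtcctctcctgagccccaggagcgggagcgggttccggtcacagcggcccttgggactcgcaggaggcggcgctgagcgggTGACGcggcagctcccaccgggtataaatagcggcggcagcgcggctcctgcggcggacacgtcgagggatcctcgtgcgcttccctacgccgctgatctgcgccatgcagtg
Tac1, chr4:36645333-36645632, plus strand: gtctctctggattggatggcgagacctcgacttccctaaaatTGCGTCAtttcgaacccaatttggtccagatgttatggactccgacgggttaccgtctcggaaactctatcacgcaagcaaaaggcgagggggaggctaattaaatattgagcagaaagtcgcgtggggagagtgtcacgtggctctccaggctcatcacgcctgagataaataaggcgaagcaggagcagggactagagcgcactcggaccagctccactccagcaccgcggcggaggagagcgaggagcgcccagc
Gal holds 1 TGACG at position -63 and none of the other 3 motifs. Tac1 holds TGCGTCA at position -208. Of 33469 promoters of this length, 1.83% hold TGACGTCA, 1.9% hold TGCGTCA, 21.2% hold TGACG and 7.33% hold TGANTCA. A match is a run of letters and not a measured site.

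Penk and Cck were not searched. Of the 7 measured precursors that were, Sst and Cartpt hold a full CRE in this window, at position 3 and at position -142 from the start that RefSeq annotates, and neither passed the test at 30 min or at 2 h.
Sst, chr11:90461296-90461595, plus strand: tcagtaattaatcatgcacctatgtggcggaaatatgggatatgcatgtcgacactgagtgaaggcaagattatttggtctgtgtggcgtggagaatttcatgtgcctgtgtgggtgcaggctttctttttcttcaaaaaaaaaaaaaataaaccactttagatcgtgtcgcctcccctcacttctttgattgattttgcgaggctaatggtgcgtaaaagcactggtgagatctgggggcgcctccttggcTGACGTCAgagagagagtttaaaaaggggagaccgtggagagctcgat
Cartpt, chr2:32991186-32991485, minus strand: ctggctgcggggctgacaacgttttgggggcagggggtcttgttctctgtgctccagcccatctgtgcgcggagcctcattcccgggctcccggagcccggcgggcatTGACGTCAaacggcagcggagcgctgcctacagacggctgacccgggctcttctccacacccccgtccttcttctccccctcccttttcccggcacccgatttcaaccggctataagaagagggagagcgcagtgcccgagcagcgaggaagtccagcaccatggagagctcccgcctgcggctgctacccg
Npy, Pdyn and Adcyap1 hold none of the 4 motifs in their windows. The windows follow the annotated start, and bases outside them were not searched.

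Sst encodes somatostatin, an inhibitory peptide of interneurons whose CRE was the one from which CREB was isolated. At 2 h it stood at 8.88, 8.74 and 8.80 in depolarized arrays, against 9.10, 8.91 and 8.83 in controls, with overlap (-0.14, 95% interval -0.35 to 0.06, adjusted p = 0.321). At 30 min the sign was the other way (0.15, 95% interval -0.06 to 0.35, adjusted p = 0.334), and the difference between the responses did not pass (-0.29, adjusted p = 0.196). Cartpt encodes the CART peptide, a feeding- and reward-linked transmitter. It ranged from 8.45 to 9.01 in depolarized 2 h arrays, against 8.43 to 8.70 in controls (0.17, 95% interval -0.08 to 0.41, adjusted p = 0.337), the widest spread within a group among the 9 at 2 h (SD 0.28).

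Cck encodes cholecystokinin. It was the nearest to a change at 30 min, where it stood at 9.10, 8.98 and 8.92 in depolarized arrays and at 8.83, 8.71 and 8.87 in controls. The depolarized arrays all lay above the controls, as in 17.9% of all probe sets, but the difference of 0.20 did not pass (95% interval 0.00013 to 0.39, adjusted p = 0.154). It was the 1 gene of the 9 with an unadjusted p under 0.05 at 30 min. At 2 h the depolarized arrays, at 9.41, 9.62 and 9.63, overlapped the controls, at 9.28, 9.64 and 9.37 (0.12, 95% interval -0.07 to 0.32, adjusted p = 0.372).

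Npy, the precursor of neuropeptide Y, an inhibitory peptide, differed by 0.10 at 30 min (95% interval -0.06 to 0.27) and by 0.0011 at 2 h (95% interval -0.17 to 0.17, adjusted p = 0.994). Adcyap1 encodes PACAP, an activator of adenylyl cyclase, and differed by 0.0065 at 30 min and by -0.07 at 2 h (95% interval -0.23 to 0.10, adjusted p = 0.609). Pdyn encodes prodynorphin, the second opioid precursor of the set. Its probe set lay within the dimmest 25%, at 5.62 to 5.90 in all 12 arrays, and differed by 0.02 at 30 min and 0.05 at 2 h (95% interval -0.10 to 0.20, adjusted p = 0.666). Set beside it, the opioid precursor Penk differed by 0.58 at 2 h; the difference between the 2 genes was not tested.

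Apart from depolarization, the control cultures differed by collection time: Cck, Tac1, Npy and Sst were higher in control 2 h than in control 30 min arrays, and none of the 9 was lower in the test. This is 44.4% of the 9, where 35.3% of all probe sets were called in either direction and 18.1% were called higher. The control 2 h arrays of these 4 genes lay above all control 30 min arrays, as did those of 22.1% of all probe sets. Cck differed most, by 0.63 (SE 0.09, adjusted p = 6.92e-05), at 9.28, 9.64 and 9.37 in control 2 h arrays and 8.83, 8.71 and 8.87 in control 30 min arrays. In depolarized cultures the same comparison gave 0.55 (adjusted p = 0.000173), so the order was depolarized 2 h, control 2 h, depolarized 30 min and control 30 min, as for Tac1. Only the middle neighbours differed in the test, with depolarized 30 min at -0.43 from control 2 h (adjusted p = 0.00106, added after seeing the data).

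Npy stood at 8.60, 8.54 and 8.51 in control 2 h arrays and at 8.16, 8.37 and 8.33 in control 30 min arrays (0.27, SE 0.08, adjusted p = 0.015). The call was lost without control 30 min replicate 1 (adjusted p = 0.0778) or control 2 h replicate 4 (adjusted p = 0.0587). Sst stood at 9.10, 8.91 and 8.83 in control 2 h arrays and at 8.73, 8.46 and 8.82 in control 30 min arrays, just without overlap (0.28, adjusted p = 0.0343). It was lost without control 30 min replicate 2 (0.18, adjusted p = 0.189), control 2 h replicate 4 (adjusted p = 0.164) or control 2 h replicate 5 (adjusted p = 0.0601), and with quantile normalization (adjusted p = 0.0557). In depolarized cultures, 3 of the 9 were higher at 2 h than at 30 min (Gal, Tac1 and Cck), or 33.3%, where 41.0% of all probe sets were called in either direction and 19.2% were called higher.

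**Figure D3:**
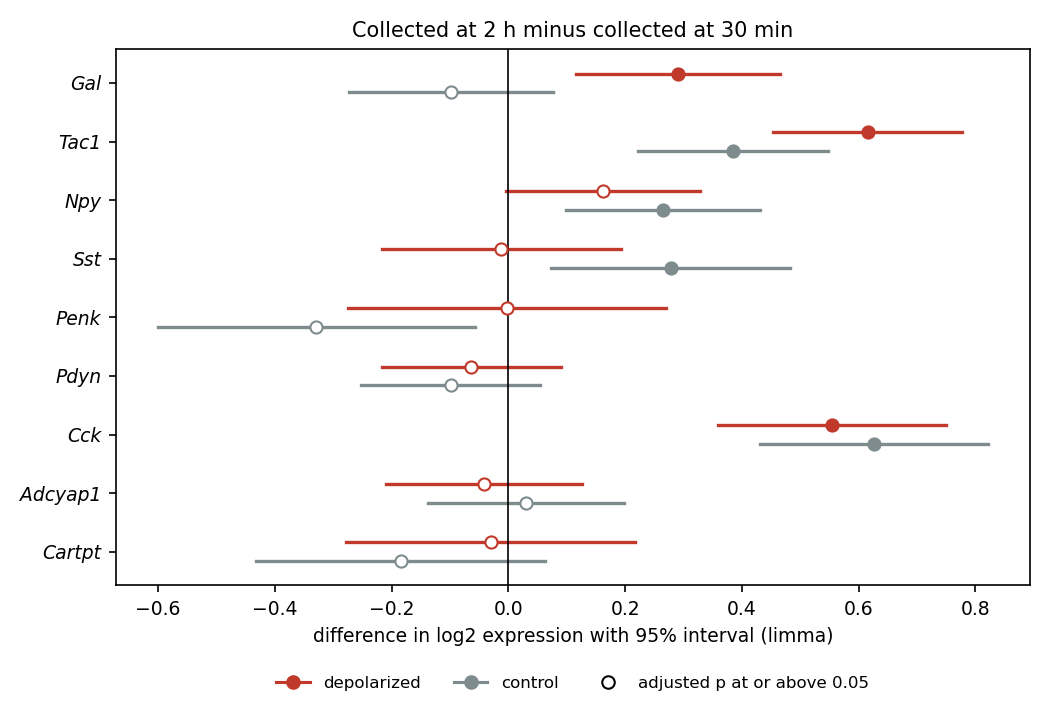
Difference in log2 expression between collection at 2 h and at 30 min for each of the 9 precursors (point, with its 95% interval as a line) in depolarized (red) and control (grey) cultures; open points did not pass adjusted p 0.05. Cck and Tac1 pass in both, at 0.55 and 0.62 in depolarized and 0.63 and 0.38 in control cultures, and Penk passes in neither, at -0.0030 in depolarized and -0.33 in control cultures.

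Neuronal markers moved with collection time. In controls 18.1% of all probe sets were called higher at 2 h than at 30 min, and 35.3% were called in either direction. All 9 measured markers of neurons were higher in control 2 h than in control 30 min arrays, with a median difference of 1.06, and their mean level lay at 11.47 to 11.51 in control 2 h arrays, against 10.35 to 10.58 in control 30 min arrays. All 3 measured GABAergic markers were also higher (median 1.49), as were 6 of 8 dopaminergic ones (median 0.70), while 4 of 6 progenitor markers and 5 of 6 markers of the oligodendrocyte lineage were lower. Their part in the differences of Cck, Tac1, Npy and Sst was not tested. In these bulk cultures more cells of a type and more RNA per cell cannot be told apart. Whether the 2 collection times shared a preparation is not in the labels, so collection time cannot be told apart from preparation either.

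Between depolarized and control cultures at 2 h the neuronal markers had a median difference of -0.09. Of the 9, 2 rose (22.2%, where 9.51% of all probe sets were called higher). These were the neurofilament genes Nefl (0.43, adjusted p = 0.0102) and Nefm (0.39, adjusted p = 0.00109). Nefm had already risen at 30 min (0.65, adjusted p = 6.2e-06), and Nefl did not pass there (0.27, adjusted p = 0.109). Nefl was at the threshold without control 2 h replicate 5 (adjusted p = 0.05). The mean level of the 9 markers was 11.47 to 11.53 in depolarized 2 h arrays and 11.47 to 11.51 in control 2 h arrays. None of the 3 GABAergic markers was called there by limma (0 at an unadjusted p under 0.05, median -0.05). Of the 8 dopaminergic markers, 3 rose and 1 fell at 2 h, or 50%, where 25.2% of all probe sets were called in either direction. Their median difference was -0.0066. Foxa2, a floor plate factor (0.37, adjusted p = 0.00272), held without any 1 array, and had already risen at 30 min (0.29, adjusted p = 0.0134). Slc18a2, the vesicular monoamine transporter (0.31, adjusted p = 0.0349), was lost without depolarized 2 h or control 2 h replicates 4 or 5 (adjusted p up to 0.185). Nr4a2 (0.26, adjusted p = 0.0281) was lost without depolarized 2 h replicates 5 or 6 or control 2 h replicates 4 or 6 (adjusted p up to 0.121). It had risen more at 30 min (0.87, adjusted p = 1.13e-06), and the responses differed by -0.61 (adjusted p = 0.00241). Aldh1a1 was the gene that fell (-0.59, adjusted p = 0.0356), a call lost without depolarized 2 h replicates 4 or 6 or control 2 h replicates 4 or 5 (adjusted p up to 0.184, and -0.30 without depolarized 2 h replicate 4). Th did not pass (-0.09, adjusted p = 0.68). Of the glial markers, 1 of 7 astrocyte, 1 of 6 oligodendrocyte lineage and 0 of 6 microglial ones were called at 2 h. Of 6 progenitor markers 1 was higher and 1 lower, or 33.3%, where 25.2% of all probe sets were called in either direction. The genes called were Fgfr3 (0.31, adjusted p = 0.0249) and the progenitor marker Sox2 (0.31, adjusted p = 0.0327), both higher. The progenitor marker Hes5 (-0.75, adjusted p = 3.35e-05) and Pdgfra (-0.75, adjusted p = 3.34e-05) were lower. Fgfr3 was lost without depolarized 2 h or control 2 h replicates 4 or 6 (adjusted p up to 0.0871) and had been lower at 30 min (-0.40, adjusted p = 0.00488). Sox2 was lost without depolarized 2 h replicates 4 or 6 or control 2 h replicate 5 (adjusted p up to 0.178). Aldh1a1 and these 4 genes were named after their values were seen, and their part in the rises of Gal, Tac1 and Penk was not tested. Nefl, Slc18a2, Nr4a2, Sox2 and Hes5 have 2 probe sets each, and only the brighter is given.

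Of 26 receptor genes for these peptides, 23 were measured. At 2 h 3 rose and 1 fell (17.4%, where 9.51% of probe sets rose and 15.7% fell), and the count of rises was 1 without control 2 h replicate 4 or 5. The largest rise was of Tacr1, the substance P receptor NK1, whose ligand precursor Tac1 rose at the same time. Tacr1 stood at 8.62, 8.99 and 8.72 in depolarized 2 h arrays, against 8.35, 8.07 and 8.22 in controls, without overlap (0.57, SE 0.09, adjusted p = 0.000336). At 30 min it differed by -0.14 (adjusted p = 0.36), and the responses differed by 0.70 (SE 0.13, adjusted p = 0.0019). A dimmer Tacr1 probe set gave 0.0072 at 2 h (adjusted p = 0.954), so the rise rests on 1 of 2 probe sets.

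Sstr1, a somatostatin receptor, rose by 0.39 at 2 h (adjusted p = 0.0262), and its 2 dimmer probe sets gave 0.20 (adjusted p = 0.0484) and 0.09 (adjusted p = 0.477). That call was lost without depolarized 2 h replicate 4 (adjusted p = 0.149) or control 2 h replicates 4, 5 or 6 (adjusted p from 0.0552 to 0.0711). Sstr4, named after its values were seen, rose by 0.28 (adjusted p = 0.0264), a call lost without depolarized 2 h replicate 5 or control 2 h replicates 4 or 5 (adjusted p up to 0.121). The galanin, neuropeptide Y, opioid, cholecystokinin and neurotensin receptors measured did not pass at either time.

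Adcyap1r1, the PACAP receptor PAC1, fell at both times although its ligand precursor did not pass at either. It stood at 11.61, 11.60 and 11.80 in depolarized 30 min arrays, against 12.13, 11.96 and 12.09 in controls (-0.39, SE 0.07, adjusted p = 7e-04). At 2 h it stood at 11.50, 11.53 and 11.60 in depolarized arrays, against 11.98, 12.001 and 11.86 in controls (-0.40, adjusted p = 0.00069). The groups were apart at both times, though the share of all probe sets apart in that direction was not counted. The responses differed by -0.02 (adjusted p = 0.955). These values are of the brightest of 4 Adcyap1r1 probe sets. Of the other 3, 1 also passed at 30 min (-0.43, adjusted p = 0.0244) and none passed at 2 h, where they gave -0.01 to -0.10.

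Of 8 measured genes that act in cutting and trimming precursors, 0 were called by limma at either time, with 1 at an unadjusted p under 0.05 at each. They hold enzyme genes such as Pcsk2 (a convertase), Cpe (a carboxypeptidase) and Pam (amidation), and also Pcsk1n, a convertase inhibitor, and Scg5, a convertase chaperone. At 30 min 1 was higher with median centring or array weights and 1 was lower with quantile normalization, and at 2 h 1 was lower without depolarized 2 h replicate 5. Of 10 peptidases that can degrade peptides 0 were called by limma, with 0 at an unadjusted p under 0.05 at 30 min and 1 at 2 h. Over all probe sets 24.0% were called at 30 min and 25.2% at 2 h. In control cultures 4 of the 8 processing genes and all 5 granins were higher at 2 h than at 30 min, with median differences of 0.32 and 1.04. Of all probe sets 18.1% were called higher in that comparison. Of the granins, Scg2 and Vgf rose after depolarization at both times. The Vgf response was larger at 2 h than at 30 min by 1.31 (adjusted p = 9.25e-05), as with Gal, whereas that of Scg2 differed by -0.05 (adjusted p = 0.881).

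Of 40 other peptide precursors 29 were measured, only 14 of them above the dimmest 25% of probe sets. At 30 min 2 rose (6.9%, where 10.8% of all probe sets were called higher). They were Adm, the vasodilator adrenomedullin (2.31, adjusted p = 7.08e-09), and Nppc, the C-type natriuretic peptide (0.64, SE 0.06, adjusted p = 2.23e-06). Nppc stood at 7.05, 6.89 and 6.84 in depolarized 30 min arrays, against 6.32, 6.31 and 6.24 in controls, and by 2 h the difference was 0.04 (adjusted p = 0.694). Its response was lower at 2 h than at 30 min by -0.59 (adjusted p = 0.00042), the opposite order to Gal. At 2 h 5 of 29 rose (17.2%, where 9.51% of all probe sets were called higher). They were Adm (0.90, adjusted p = 0.000172), Apln (0.67, adjusted p = 0.0203), Npvf (0.39, adjusted p = 0.0198), Iapp (0.27, adjusted p = 0.0418) and Calca (0.19, adjusted p = 0.0299). The last 2 were named after their values were seen, and Apln is given at the brighter of 2 probe sets. Iapp was lost without any 1 of 9 arrays (adjusted p from 0.0502 to 0.183), which were depolarized 30 min replicate 2 and all arrays of control 30 min, depolarized 2 h and control 2 h except control 2 h replicate 6. Calca was lost without depolarized 2 h replicates 5 or 6 or control 2 h replicates 4 or 5 (adjusted p up to 0.101).

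The count of 2 at 30 min was 4 with median centring or without depolarized 30 min replicate 3, and 1 without the dimmest 25% of probe sets. The count of 5 at 2 h was lower without some single arrays. It was 2 without depolarized 2 h replicate 4 or control 2 h replicate 4, 3 without depolarized 2 h replicate 5 or control 2 h replicate 5, and 1 without depolarized 2 h replicate 6. Apln, the apelin precursor, was lost without depolarized 2 h replicate 4 or 6 or control 2 h replicate 4 or 6 (adjusted p from 0.0508 to 0.115), and Npvf without depolarized 2 h replicate 4 or 6 or control 2 h replicate 6 (adjusted p from 0.0579 to 0.111). Both were lower in control 2 h than in control 30 min arrays, by -1.62 and -0.92. So were Adm (-0.60, adjusted p = 0.00258) and Iapp (-0.26, adjusted p = 0.0382), while Calca did not pass (-0.16, adjusted p = 0.0502).

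**Figure D4:**
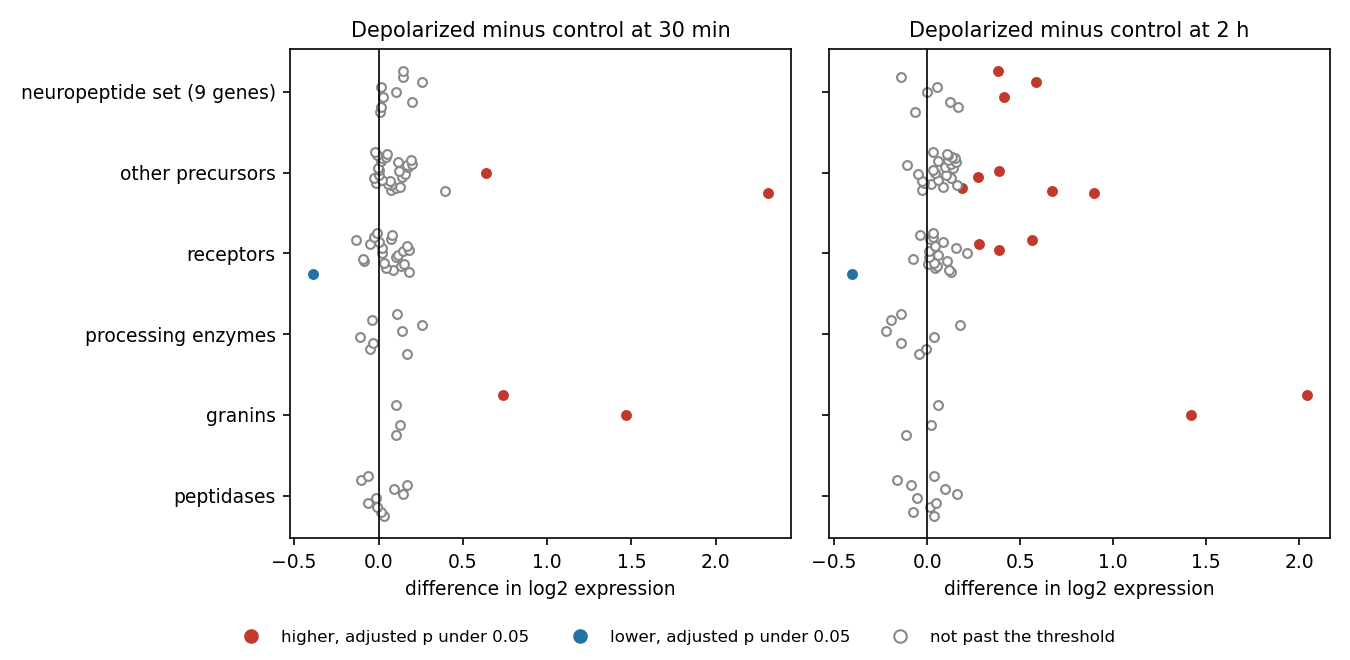
Depolarized minus control difference in log2 expression at 30 min and at 2 h, 1 point per measured gene, for the 9 precursors, other precursors, receptors, processing enzymes, granins and peptidases; red is higher, blue lower and open not past adjusted p 0.05. The 9 precursors have 0 filled points at 30 min and 3 at 2 h, beside 2 and 5 among 29 other precursors, and the 1 blue point of each panel is Adcyap1r1.

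Of 16 measured genes for CREB and AP-1 factors and their coactivators, 12 rose at 30 min and 7 at 2 h, with 1 and 2 falls. In either direction 81.2% were called at 30 min and 56.2% at 2 h, where 24.0% and 25.2% of all probe sets were. The falls were of coactivator genes, whose products do not themselves bind these motifs: Crtc3 at 30 min (-0.44, adjusted p = 3.17e-05), and Crebbp (-0.27, adjusted p = 0.00904) and Ep300 (-0.34, adjusted p = 0.0031) at 2 h. These 3 were named after their values were seen, and the Ep300 difference at 30 min was a rise (0.44, adjusted p = 0.000285). The falls at 2 h numbered 1 without control 2 h replicate 5, and the rises numbered 7 at 30 min and 3 at 2 h without the dimmest 50% of probe sets. The response was lower at 2 h than at 30 min in 8 of the 16 and higher in 3 (68.8% called, where 13.0% of all probe sets were). Fosl1, an AP-1 subunit, stood at 9.30, 8.73 and 9.39 in depolarized 2 h arrays, against 7.70, 7.27 and 7.82 in controls (1.54, adjusted p = 4.35e-06), and had risen by 0.65 at 30 min. Gal, Tac1 and Penk were called at 2 h and not at 30 min, but among them the difference between the times passed for Gal alone. With the replicate number as a block, it passed for Penk (adjusted p = 0.0429) and not for Gal (adjusted p = 0.0692).

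Across the 12 arrays, the genes whose levels ran most like those of the risen precursors were found by Pearson's r over 10410 other genes. These correlations describe 12 arrays that share 4 groups and 1 normalization. Closest to Gal were Hpgd, a prostaglandin-degrading dehydrogenase (r = 0.91), Vapa (r = 0.90) and the lipopolysaccharide co-receptor gene Cd14 (r = 0.90). Closest to Tac1 were the calcium channel subunit gene Cacnb4 (r = 0.96), the homeodomain factor gene Nkx6-1 (r = 0.96) and the phosphodiesterase gene Pde10a (r = 0.95). Closest to Penk were Plau, which encodes urokinase (r = 0.91), Acap1 (r = 0.90) and the sodium-calcium exchanger gene Slc8a2 (r = 0.89).

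These 9 genes were chosen over the same arrays, so their differences at 2 h partly restate the choice and are given as a description with no test. At 2 h the difference was 0.58 for Hpgd, 0.10 for Vapa, 0.53 for Cd14, 0.12 for Cacnb4, 0.25 for Nkx6-1, 1.11 for Pde10a, 0.48 for Plau, 0.34 for Acap1 and 0.18 for Slc8a2. At 30 min it was 0.23 for Hpgd, 0.04 for Vapa, -0.00069 for Cd14, 0.06 for Cacnb4, 0.21 for Nkx6-1, -0.08 for Pde10a, 0.26 for Plau, 0.30 for Acap1 and 0.06 for Slc8a2. Pde10a and Cd14 were the 2 with a difference below 0 at 30 min, and the other 7 were above 0 at both times.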

How the data were processed

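The deposited values are log2 expression per probe set on an Affymetrix rat array; they were made with RMA (version not given), per the submitters' processing notes, and the log2 scale was read from the values. Which arrays were normalized together is not given in the sources used here. Control probe sets (57) were left out, which left 15866. Of these, 12783 carry 1 gene symbol in the platform annotation, 312 several and 2771 none, and a gene with several probe sets was taken at the brightest. limma 3.58.1 in R 4.3.3 was fitted with 1 mean per group over all 12 arrays (8 residual degrees of freedom), and 5 comparisons were drawn from it. The fit was tested on simulated data. The number of arrays limits the precision. Members with a call got every array's value, and up to 3 genes per list and comparison with the smallest p were named. The members, the gene lists and the tests were chosen with earlier results of these data known. Whether cultures of the 2 collection times shared a preparation is not in the labels. Alternatives covered scaling, weights, prior, filters, arrays fitted, threshold and single arrays left out.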

Additional observations from a re-analysis of the deposited data

Results flagged for a closer look

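The Gal response differed between the collection times: the depolarized minus control difference was 0.41 at 2 h and 0.03 at 30 min, and the difference between them was 0.39 (SE 0.12, adjusted p = 0.0377, limma over all probe sets). It was singled out because the test of the difference itself passed. As 1 of the 9 genes it makes 11.1%, where 13.0% of all probe sets were called and 6.16% in that direction. The call was lost without any 1 of 7 arrays (adjusted p from 0.0507 to 0.104). All 3 depolarized 2 h arrays lay above all other 9 arrays, an order not counted over all probe sets.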

How the results depend on the processing

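Across the 45 results of the 9 genes in 5 comparisons, 17 to 20 alternatives each gave 848 values, of which 820 stayed on their side of the threshold, 17 lost the call and 11 gained one. Of the 820, 33 had the other sign, in 12 results that were not called; no called value changed sign. The count of 3 genes called at 2 h was 3 without any 1 array (lowest 3, highest 3) and 1 without the dimmest 50% of probe sets, a filter that leaves Gal and Tac1 untested. With the controls of the other collection time, added after seeing the data, it was 4 with other members (Gal, Tac1, Npy and Cck, but not Penk, adjusted p = 0.136). The share of all probe sets called in that setting was not counted. It includes the difference between collection times, called for 35.3% of probe sets in controls, so the 4 are no count of depolarization responses. The count of 1 for the response difference was 0 with quantile normalization, 0 without the dimmest 50%, 0 at an adjusted p of 0.01, and 0 to 1 without single arrays. With the replicate block the Gal response difference had an adjusted p of 0.0692, and that of Penk passed (adjusted p = 0.0429). The count of 0 at 30 min was 2 with array weights (Tac1 and Penk), 1 with the replicate block (Penk, adjusted p = 0.0139) and 0 to 1 without single arrays. With the controls of the other time it was 3, again without a share over all probe sets, and there Tac1 (-0.24) and Cck (-0.43) were lower in depolarized cultures. The count of 4 in controls was 2 at an adjusted p of 0.01 and 2 to 5 without single arrays, the lowest without control 2 h replicate 4. The count of 3 in depolarized cultures by collection time was 1 without the dimmest 50% and 2 to 3 without single arrays. The causes of these changes were not tested, apart from the genes that the filter removes. Same-numbered arrays did not deviate together throughout (r from -0.32 to 0.24 over 6 numbers). With 3 arrays per group this cannot decide whether the numbers pair the samples. The main fit has no replicate block, and the fit with the block is given as an alternative. For the comparisons between times no paired analysis was possible because the numbers differ. Centring each array moved the median of all probe sets by at most 0.049.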
